A study of Mus musculus with 2 samples.

Results

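The replication-dependent histone genes were defined here as the protein-coding genes of the GENCODE vM21 annotation whose symbols start with Hist1h, Hist2h, Hist3h or Hist4. They numbered 67 of 21938 protein-coding genes: 6 of type H1, 18 of H2A, 18 of H2B, 12 of H3 and 13 of H4. The Hist1 cluster on chromosome 13 held 54 of them, the Hist2 cluster on chromosome 3 held 10, the Hist3 cluster on chromosome 11 held 2, and Hist4h4 stood alone on chromosome 6. Chromatin accessibility was measured by DNase-seq, in which nuclei are cut with DNase I and the cut sites are sequenced, in frontal cortex of male B6CASTF1/J mice, F1 animals of a C57BL/6 and CAST cross, aged 10 days. There was 1 group with 2 biological replicates, no second condition and no genetic or drug treatment in the labels. A label note gives 3 males per sample without saying whether they were pooled, and both samples carry the same donor entry, so the spread between the replicates may be technical. Genes are not replicates of a condition, so every comparison between groups of genes below is a description of these libraries without a test.

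Histone proteins package DNA into nucleosomes: H2A, H2B, H3 and H4 form the core particle, and H1 binds the DNA that links particles. The replication-dependent genes have no introns as a rule, are transcribed mainly in S phase, and make mRNAs that end in a conserved stem-loop bound by the protein SLBP instead of a poly(A) tail. In the nucleus the clusters gather in the histone locus body, where the coactivator NPAT acts; many H2A and H2B genes lie head to head and share the DNA between them. Most cortical neurons have left the cell cycle at this age while glial precursors still divide, and variant histones such as H3.3, made from replication-independent genes, serve non-dividing cells.

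The promoter sequences below were chosen to show promoters of every histone type, among them some of the strongest sites, and the words described later. They are RefSeq windows on GRCm38.p6, which has the coordinates of mm10, printed 5′ to 3′ in the direction of the gene and ending 9 bases after the RefSeq start. Capitals mark bases that lie in a footprint, a short stretch protected from cleavage, in both libraries. The H4 windows are those of Hist1h4a at chr13:23761240-23761399 on the minus strand, Hist1h4c at chr13:23698449-23698608 (minus), Hist1h4d at chr13:23581418-23581577 (plus), Hist1h4h at chr13:23530894-23531053 (plus) and Hist4h4 at chr6:136804422-136804581 (minus).
Hist1h4a: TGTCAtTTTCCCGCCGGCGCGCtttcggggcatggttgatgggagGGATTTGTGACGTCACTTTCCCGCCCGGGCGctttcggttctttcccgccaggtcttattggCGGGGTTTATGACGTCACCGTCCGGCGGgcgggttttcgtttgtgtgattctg
Hist1h4c: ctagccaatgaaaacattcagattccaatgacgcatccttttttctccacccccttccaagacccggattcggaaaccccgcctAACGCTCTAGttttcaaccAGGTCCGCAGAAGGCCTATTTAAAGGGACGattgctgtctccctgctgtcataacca
Hist1h4d: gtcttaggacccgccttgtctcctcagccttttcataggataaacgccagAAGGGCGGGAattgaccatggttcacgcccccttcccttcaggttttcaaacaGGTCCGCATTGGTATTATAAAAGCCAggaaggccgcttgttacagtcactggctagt
Hist1h4h: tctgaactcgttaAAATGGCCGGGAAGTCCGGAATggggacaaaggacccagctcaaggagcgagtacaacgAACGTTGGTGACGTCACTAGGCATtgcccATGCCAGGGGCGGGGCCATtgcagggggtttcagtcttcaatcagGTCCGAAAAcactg
Hist4h4: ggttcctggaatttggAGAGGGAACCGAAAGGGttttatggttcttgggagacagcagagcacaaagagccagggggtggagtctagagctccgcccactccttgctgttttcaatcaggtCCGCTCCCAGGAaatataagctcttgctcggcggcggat
The other types are shown by Hist1h2ad, an H2A gene at chr13:23574191-23574390 (plus), Hist1h2bj, an H2B gene at chr13:22043008-22043207 (plus), Hist1h3e, an H3 gene at chr13:23562376-23562535 (minus), and the linker histone gene Hist1h1c at chr13:23738657-23738816 (plus). Hist1h1t at chr13:23695661-23695820 (plus), the gene of the testis linker histone, is shown because it had no promoter peak and no footprint in the window.
Hist1h2ad: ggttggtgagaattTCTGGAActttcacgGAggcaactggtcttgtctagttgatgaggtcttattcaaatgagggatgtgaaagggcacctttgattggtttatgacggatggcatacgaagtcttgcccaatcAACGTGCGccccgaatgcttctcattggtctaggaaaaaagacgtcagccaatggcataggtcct
Hist1h2bj: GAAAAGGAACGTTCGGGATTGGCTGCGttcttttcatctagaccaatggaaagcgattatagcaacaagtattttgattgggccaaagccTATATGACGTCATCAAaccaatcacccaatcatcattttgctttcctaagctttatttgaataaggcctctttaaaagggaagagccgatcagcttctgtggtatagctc
Hist1h3e: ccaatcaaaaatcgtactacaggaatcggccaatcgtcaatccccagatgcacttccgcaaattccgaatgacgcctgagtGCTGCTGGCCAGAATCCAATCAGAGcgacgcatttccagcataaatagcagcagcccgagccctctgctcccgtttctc
Hist1h1c: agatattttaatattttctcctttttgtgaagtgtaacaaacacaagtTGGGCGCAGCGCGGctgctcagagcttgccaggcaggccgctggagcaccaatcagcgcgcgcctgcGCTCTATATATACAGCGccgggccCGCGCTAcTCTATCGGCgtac
Hist1h1t: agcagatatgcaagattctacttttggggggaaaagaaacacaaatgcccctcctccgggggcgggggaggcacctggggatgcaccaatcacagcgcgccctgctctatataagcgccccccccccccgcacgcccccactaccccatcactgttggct

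Most histone promoters were open. Of the 67 histone genes, 52 (77.6%) had in both libraries a peak that reached within 1 kb of one of their transcription start sites (TSSs), against 55.1% of all protein-coding genes. Replicate 1 had such a peak at 54 of the genes and replicate 2 at 52. Hotspots, the wider domains of raised cleavage, lay at 56 of the 67 promoters in both libraries (83.6%), against 63.4% of all protein-coding genes. Footprints lay at 54 of 67 (80.6%), against 59.6%. All 3 shares were above the background, but neighbouring histone genes share sites, so the genes do not count independently. In bulk tissue, a site open in few cells and a site weakly open in many cells cannot be told apart.

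Every core histone type was mostly open. The genes open in both libraries, meaning those with a promoter peak in each, were 11 of 13 H4 genes, 14 of 18 H2A genes, 14 of 18 H2B genes, 9 of 12 H3 genes and 4 of 6 H1 genes. Some of these peaks lay far from the TSS, most often among the H3 genes. A peak lay within 100 bp in both libraries at 11 H4, 13 H2A, 13 H2B, 7 H3 and 4 H1 genes. By cluster, the genes open in both libraries were 41 of 54 Hist1 genes, 8 of 10 Hist2 genes, both Hist3 genes and Hist4h4. Gaps of over 200 kb between member TSSs divide Hist1 into 3 blocks, with a wider spread of shares than the types had. In block 1, at chr13:21715143-21834743, 11 of 18 genes were open in both libraries. In block 2, at chr13:22034568-22044214, they were 5 of 5, and in block 3, at chr13:23530050-23935462, 25 of 31. Among the open genes, the strongest promoter peak had a median density of 2.35 in replicate 1 and 1.56 in replicate 2 for block 1, 3.26 and 3.41 for block 2, 3.55 and 2.33 for block 3, and 4.48 and 3.10 for Hist2, where density is the cleavage signal deposited by the authors. Block 1 was thus lowest both in the share of open genes and in their density. Its share counts genes of mostly or wholly repeated promoter sequence that were not open in both libraries. The share of short sequence words found once in the genome was 0% for Hist1h2bq, Hist1h2ao, Hist1h2ap and Hist1h2br. It was 4.21% for Hist1h4m and 4.26% for Hist1h4n. Whether repeated sequence lowered the share of open genes in block 1 was not tested.

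**Figure D1:**
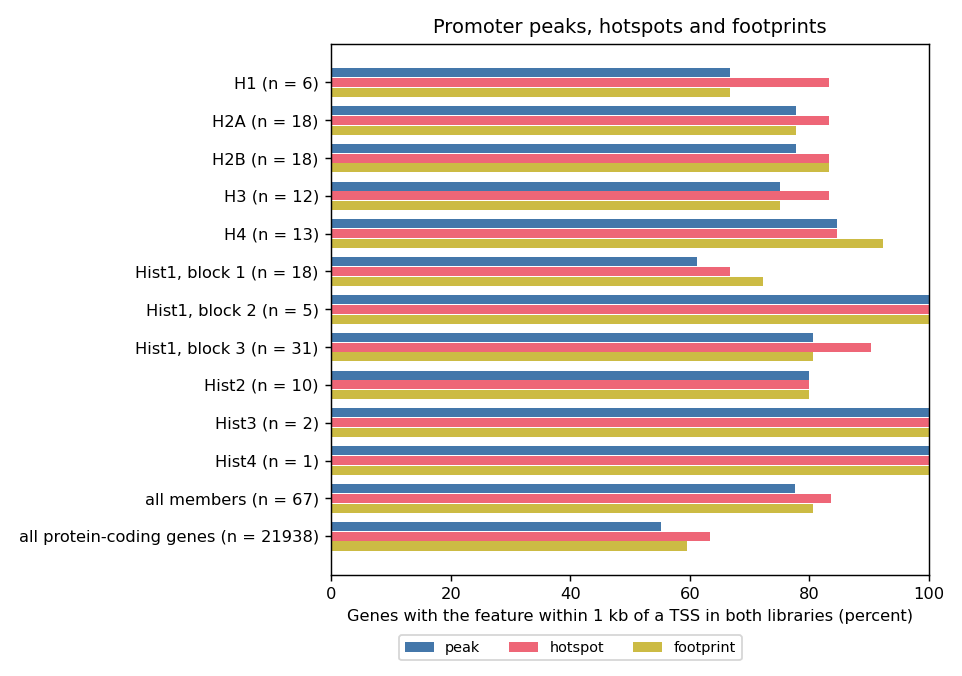
Share of genes (percent, horizontal axis) with a promoter peak, hotspot or footprint within 1 kb of a TSS in both libraries, with a bar for each feature, by histone type, by cluster or block, for all 67 members and for all 21938 protein-coding genes. Block 1 of Hist1 has the lowest peak share, 61.1%, with its genes of repeated promoter sequence counted. The bars of all protein-coding genes end at 55.1%, 63.4% and 59.6%.

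Counted once each, the peaks near histone genes formed 61 distinct sites, of which 51 were found in both libraries, 7 in replicate 1 only and 3 in replicate 2 only. Of the 61 sites, 22 lay in the promoter windows of at least 2 histone genes, and 8 lay within 100 bp of the TSSs of both an H2A and an H2B gene. Site strength is given as the deposited density, which is ranked here only within each library's own peak list. Over the 51 sites found in both libraries the density ran from 0.639 through a median of 3.09 to 12.8 in replicate 1, and from 0.645 through 2.33 to 7.86 in replicate 2. Replicate 2 was read more deeply, 1.64 times as deep as replicate 1 by the step size of the densities, and its density was a median of 0.72 times that of replicate 1 (0.497 to 1.52). The order of the sites was alike in both libraries (Spearman rho 0.932, and Pearson r 0.937 of log2 densities, over 51 sites of the same 2 libraries, which are not independent samples).

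**Figure D2:**
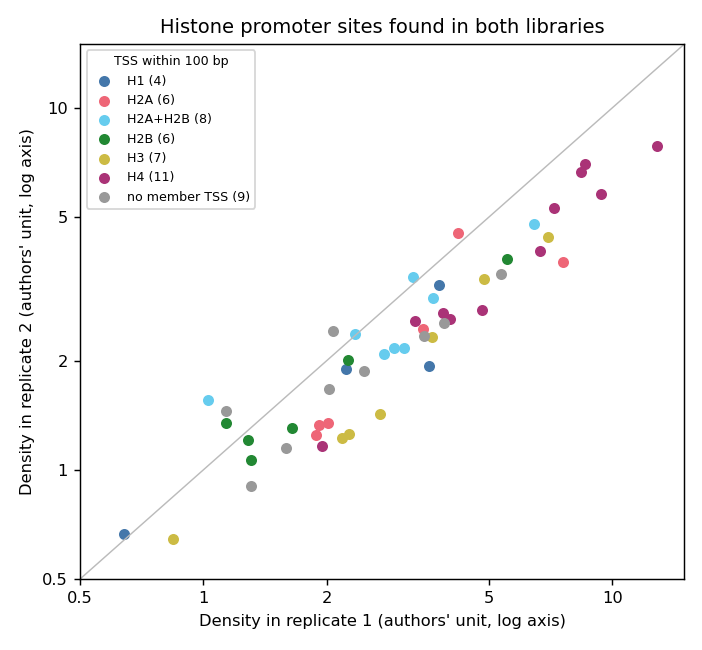
Density of the 51 histone promoter sites found in both libraries, replicate 1 on the horizontal and replicate 2 on the vertical axis (authors' unit, log axes), 1 point per site, coloured by the histone type of the TSSs within 100 bp. The line marks equal values; H4 sites take most of the upper right, and most sites lie below the line.

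H4 promoters were the strongest of the histone sites. The 11 H4 sites found in both libraries had a median density of 6.65 in replicate 1 and 4.02 in replicate 2, at the 91.4th percentile of all peaks of each library. The 8 sites shared by an H2A and an H2B gene had medians of 3.01 and 2.27, the 7 H3 sites 2.70 and 1.43, the 6 H2A-only sites 2.73 and 1.90, the 6 H2B-only sites 1.48 and 1.33 and the 4 H1 sites 2.89 and 1.92. The H4 range was wide, 1.95 to 12.8 in replicate 1 and 1.17 to 7.86 in replicate 2, and overlapped the range of every other type in both libraries. The 9 sites in a promoter window but over 100 bp from any histone TSS had medians of 2.08 and 1.87. The H2B-only site at chr13:23620701-23621480 (1.14 and 1.35) lies at an annotated TSS of Hist1h2be, far from its stem-loop at chr13:23585531-23585546. Peaks near its other RefSeq start, at chr13:23585970, were present in both libraries but are not counted among the sites.

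The density of histone promoter peaks compared differently per gene and per peak. For the 52 histone genes open in both libraries, the strongest promoter peak had a median density of 3.26 in replicate 1 and 2.38 in replicate 2, against 4.30 and 2.80 for the 12088 protein-coding genes open in both. Counted as distinct peaks, 62 histone promoter peaks in replicate 1 had a median density of 2.31, against 2.31 for the 19003 promoter peaks of all protein-coding genes. In replicate 2 the 55 histone peaks had a median of 2.17, against 1.53 for 19936. Per gene the histone values were lower in both libraries, while per peak they were level in replicate 1 and higher in replicate 2. The value per gene is the highest over all peaks near any annotated TSS, so genes with more peaks have more values to draw from. In replicate 1, 54 histone genes had 62 distinct peaks, against 19003 at 12668 protein-coding genes. In replicate 2, 52 had 55, against 19936 at 12492. Whether this lowered the histone values per gene was not tested. The strongest 10% of each library's list held 9 of the 62 histone peaks in replicate 1 and 11 of the 55 in replicate 2, 14.5% and 20%, against 19.5% and 21.0% of all promoter peaks.

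**Figure D3:**
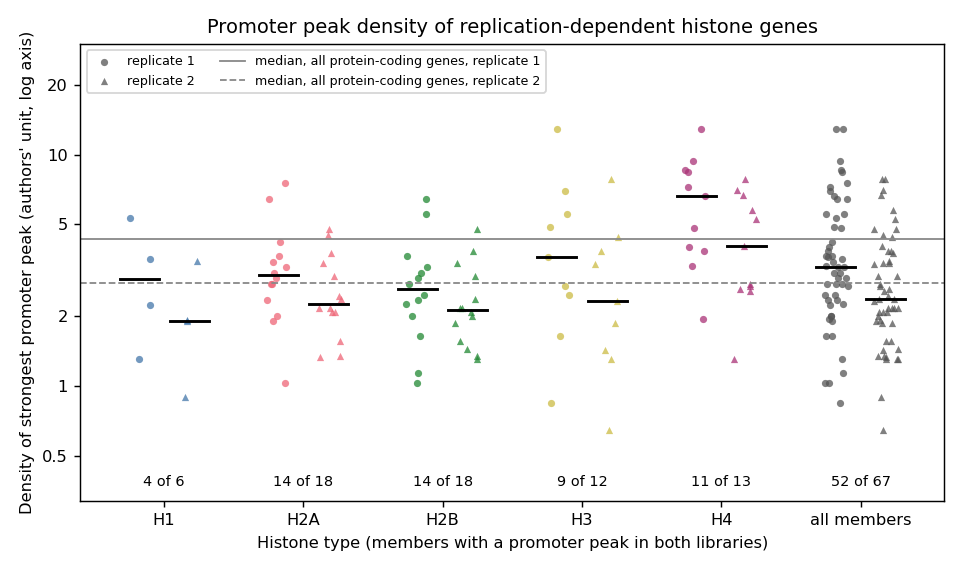
Density of the strongest promoter peak (authors' unit, log axis) of each histone gene open in both libraries, by histone type and for all members; circles are replicate 1, triangles replicate 2, black bars medians, and the counts at the bottom give genes with a peak of genes in the type. Genes that share a peak repeat its value, as Hist1h3a in the H3 column repeats that of Hist1h4a; the H4 medians of 6.65 and 4.02 lie above the medians of all protein-coding genes, 4.30 and 2.80, drawn as lines.

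Hist1h4a had the strongest histone site. It lay at chr13:23761321-23761420 in replicate 1 with a density of 12.8 and at chr13:23761321-23761400 in replicate 2 with 7.86, the 98.3rd and 97.8th percentile of the lists. Its nearest end was 91 bp upstream of the annotated TSS, and the hotspot around it reached a −log10 FDR of 85.7 and 73.5. The same peak falls at the edge of the window of the H3 gene Hist1h3a, 966 bp from that TSS in replicate 1, so the high rank of Hist1h3a is that of Hist1h4a. Nearer to its own TSS, Hist1h3a had no peak in replicate 1 and one of density 0.99 in replicate 2, 243 bp from the TSS.

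Hist1h4h followed by mean percentile, with a peak over its TSS at chr13:23530921-23531140 of density 8.59 in replicate 1 and at chr13:23530901-23531140 of 7.01 in replicate 2. Its hotspot reached 56.0 and 67.8, and its window held 13 and 11 footprints. Hist1h4c had 9.37 and 5.76, Hist1h4d 8.38 and 6.67, and Hist1h4i 6.65 and 4.02. At the low end, Hist1h4j had 1.95 and 1.17 at its TSS. Another peak of 1.30, found in replicate 2 only, lay 722 bp from that TSS. H4 genes as a rule encode one and the same protein.

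Among H3 genes, Hist1h3e had the strongest site at its own TSS, at chr13:23562301-23562560 with a density of 6.95 in replicate 1 and at chr13:23562321-23562620 with 4.39 in replicate 2. Hist1h3g had 4.85 and 3.37, and Hist1h3i, the weakest, 0.845 and 0.645. In the H2A and H2B types, Hist1h2ad and Hist1h2bf share the site at chr13:23574201-23574460, with 6.43 in replicate 1, and chr13:23574221-23574440, with 4.77 in replicate 2. Among the linker histone genes, Hist1h1c had a peak over its TSS of density 3.77 and 3.24 and a stronger one of 5.33 and 3.46 starting 793 bp or more downstream, and Hist1h1e had 3.55 and 1.93 over its TSS.

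Histone promoter peaks mostly sat on or near the start sites. The nearest peak covered the TSS at 42 of 54 histone genes with a peak in replicate 1 and at 35 of 52 in replicate 2, and at 48 genes a peak lay within 100 bp in both libraries. These counts were not made for other protein-coding genes, so they do not show a trait particular to histone promoters. The authors' per-base false discovery rate (FDR) shows the shape. At 60 bp upstream of the TSS, 92.3% of the 13 H4 genes had an FDR under 0.001 in replicate 1, and at 190 bp upstream 84.6% had one in replicate 2. By 300 bp downstream the H4 shares were 30.8% and 15.4%, and at 500 bp upstream 0% and 7.69%. H2A and H2B genes reached 77.8% in both libraries, H1 genes 66.7% in both, and H3 genes 58.3% in replicate 1 and 66.7% in replicate 2.

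**Figure D4:**
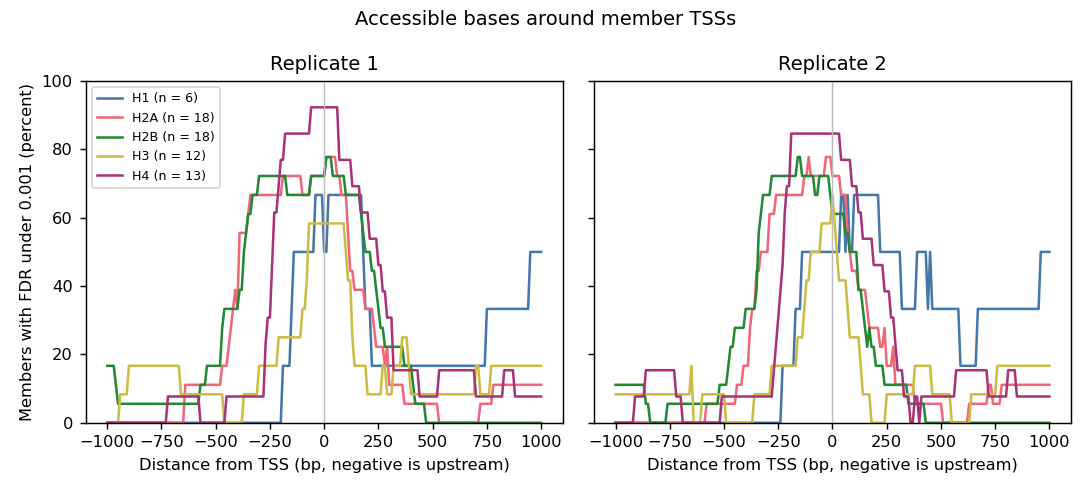
Share of histone genes of each type (percent, vertical axis) with a per-base FDR under 0.001 at each distance from the TSS (bp, horizontal axis, negative upstream), in replicate 1 on the left and replicate 2 on the right. H4 reaches 92.3% and 84.6%; H2A and H2B genes, many of them head to head, stay high farther upstream, and every type is lower 500 bp upstream.

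Hotspots at histone promoters were compact. Over the 56 histone genes with a hotspot, the highest −log10 FDR had a median of 20.6 in replicate 1 and 17.8 in replicate 2, against 24.2 and 19.96 for all protein-coding genes with a hotspot. The distinct hotspots, 72 in replicate 1 and 74 in replicate 2, had a median width of 470 bp and 492.5 bp, against 712 bp and 569 bp. Peaks themselves were of usual width, with a median of 252.5 bp and 220 bp, against 240 bp in each library for all promoter peaks. The widths thus differed from those of other promoters for hotspots more than for peaks.

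Head-to-head pairs, in which 2 TSSs within 1 kb point away from each other, were open as a rule. There were 13 pairs of histone genes, 12 of them an H2A with an H2B gene and the other Hist1h2bh with the H3 gene Hist1h3f. A peak lay between or on the TSSs in both libraries at 10 of 13 pairs (76.9%), against 642 of 741 other head-to-head protein-coding pairs (86.6%). The median density at the open pairs was 2.84 in replicate 1 and 2.17 in replicate 2, against 6.66 and 4.29 at the other pairs. Histone pairs were thus below other pairs in both measures. The share of open histone pairs counts pairs of wholly repeated promoter sequence, named below. Their TSSs lay a median of 268 bp apart, against 127 bp. The strongest pair was Hist1h2bf with Hist1h2ad, 6.43 and 4.77, and the weakest in replicate 1 was Hist1h2ak with Hist1h2bn, 1.03 and 1.56. Between these lay Hist1h2an with Hist1h2bp at 3.64 and 2.99, Hist1h2ag with Hist1h2bj at 3.26 and 3.41, Hist1h2ah with Hist1h2bk at 3.09 and 2.17, Hist1h2ac with Hist1h2bc at 2.92 and 2.17, and Hist1h2bl with Hist1h2ai at 2.35 and 2.38. The pairs without a peak in either library were Hist1h2ba with Hist1h2aa, Hist1h2bq with Hist1h2ao and Hist1h2ap with Hist1h2br. In the promoter windows of Hist1h2bq, Hist1h2ao, Hist1h2ap and Hist1h2br, 0% of short sequence words occur once in the genome. Whether repeated sequence lowered the share of open histone pairs was not tested.

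The Hist2 cluster was open at 8 of its 10 genes. Hist2h4, of type H4, had the strongest site of the cluster in replicate 2, with a density of 5.28 at chr3:96263261-96263480. In replicate 1 it had 7.21 at chr3:96263241-96263480. Hist2h2aa2 had 7.56 at chr3:96240201-96240440 in replicate 1 and 3.75 at chr3:96240321-96240440 in replicate 2, and its near-identical neighbour Hist2h2aa1 had 3.44 and 2.45. These 2 genes share much of their sequence, so the split of reads between them is uncertain. In both peak lists of the authors' other run, Hist2h2aa2 had no promoter peak in either library. Hist2h2bb had 5.51 and 3.83 at its TSS, and the adjacent Hist2h3b had 2.19 and 1.23 at its own. Hist2h2ac and Hist2h2be, a head-to-head pair, shared a site of 2.76 and 2.09, while Hist2h2ab had 1.88 and 1.25 at its TSS. A TSS of another gene, Bola1, also lies within 1 kb of the Hist2h2ab site. The H3 genes Hist2h3c1 and Hist2h3c2 had no peak, hotspot or footprint in either library.

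The Hist3 and Hist4 genes are few and were all open. Hist3h2a, an H2A gene, had a density of 4.19 at chr11:58954341-58954720 in replicate 1 and 4.50 at chr11:58954441-58954700 in replicate 2, with 14 and 13 footprints in its window. A TSS of another gene, Trim17, also lies within 1 kb of this site. The site was one of those with a higher density in replicate 2. Hist3h2ba, an H2B gene, had 2.25 at chr11:58948821-58949180 and 2.01 at chr11:58948632-58948998. Hist4h4 had 4.80 at chr6:136804341-136804560 in replicate 1 and 2.77 at chr6:136804341-136804580 in replicate 2, with a hotspot of 24.3 and 18.1.

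The 15 histone genes without a peak in both libraries were of several kinds. Hist1h2bm (density 0.99) and Hist1h4m (1.04) had a peak in replicate 1 only, and 13 genes had none in either library. Hist1h2ba and Hist1h2aa, which encode the testis histones TH2B and TH2A, and Hist1h1t, which encodes the testis linker histone H1t, were among the 13. The windows of Hist1h2ba and Hist1h2aa held no hotspot and no footprint, and Hist1h1t had weak hotspots of 2.20 and 1.36. Hist1h2bq, Hist1h2ao, Hist1h4n, Hist1h2ap and Hist1h2br, together with Hist1h4m, lie side by side at the end of block 1. The remaining genes were Hist2h3c1, Hist2h3c2, Hist1h1d, Hist1h3d and Hist1h2ab.

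Repeated sequence went along with missing peaks. The share of 32-base words of the promoter window that occur once in the genome was 0% for Hist1h2ao, Hist1h2ap, Hist1h2bq and Hist1h2br, 4.21% for Hist1h4m and 4.26% for Hist1h4n. It was 19.4% for Hist2h3c1 and 20.4% for Hist2h3c2. The 300 bases of the RefSeq promoters of Hist1h2bq and Hist1h2br are identical (100%). Of the 10 histone genes with under 50% of such words, 2 were open in both libraries, Hist2h2aa1 and Hist2h2aa2. Of the 46 with 50 to 90%, 41 had one, and of the 11 with at least 90%, 9 had one. How reads with several matches were treated is not given in the sources used here, and the part of repeated sequence in the missing peaks was not tested. Among the 57 genes with at least 50% of words found once, 50 were open in both libraries.

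**Figure D5:**
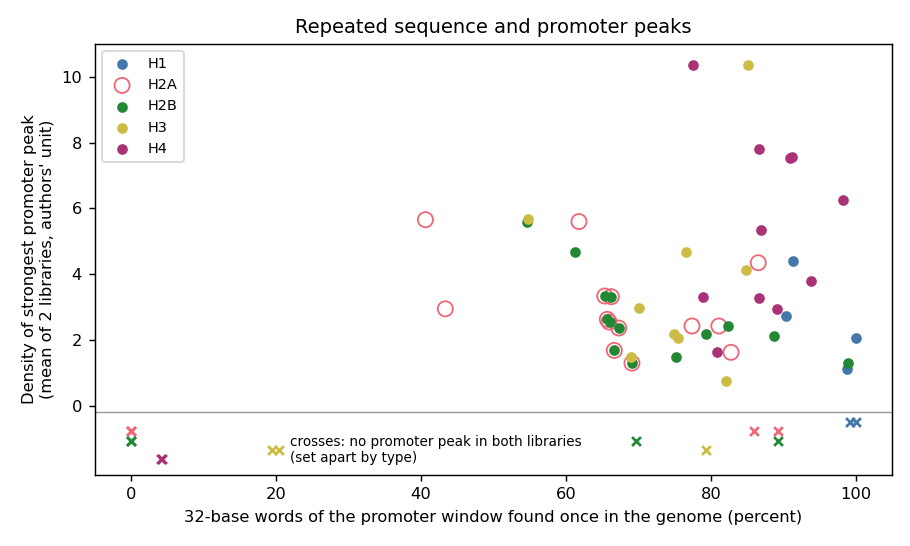
Mean over both libraries of the density of the strongest promoter peak (authors' unit, vertical axis) against the share of 32-base words of the promoter window that occur once in the genome (percent, horizontal axis), 1 symbol per histone gene, coloured by type, H2A as open rings since paired genes coincide. Crosses below the line are the 15 genes without a promoter peak in both libraries; 8 of them lie below 50%.

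The other missing peaks had varied surroundings. The annotated TSS of Hist1h1d lies 1828 bp from its first coding base, and a window around that base held peaks of 1.90 in replicate 1, at chr13:23554881-23555220, and 1.26 in replicate 2, at chr13:23555021-23555115. Hist1h3d had hotspots of 4.27 and 2.36 but no peak. The window of Hist1h2ab reaches the hotspot of its neighbour Hist1h3b, of 17.6 and 15.4, and held no footprint. In the authors' looser peak list, Hist1h2bm, Hist1h4m and Hist1h4n had a promoter peak in both libraries. In the larger list of the authors' other run, Hist1h2bm, Hist1h2ab and Hist1h3d had one in both, while Hist1h4m and Hist1h4n had none in either list of that run.

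Peaks were denser in the blocks of Hist1 than in the intervals between them. The blocks were drawn around the histone TSSs, to 1 kb beyond the outermost ones, so their rates largely count the promoter peaks described above. All peaks of blocks 1 and 2, and 28 of 33 in block 3 in each library, were histone promoter peaks. No rate over the whole genome was set beside these, so the intervals are not shown to be poor in peaks. Block 1 had 11.7 peaks per 100 kb in replicate 1 and 8.36 in replicate 2, block 2 had 31.1 in each library and block 3 had 8.14 in each. The interval between blocks 1 and 2 had 5.004 and 3.503, and the interval of 1486 kb between blocks 2 and 3 had 1.82 and 1.35. The Hist1 range holds genes of the vomeronasal receptor family Vmn1r, and 0 of 36 Vmn1r genes within the Hist1 range had a promoter peak in either library. Of all 49 other protein-coding genes within that range, 3 were open in both libraries: the zinc finger genes Zfp184 and Zfp322a, and Abt1. In the same region, then, 41 of 54 histone genes were open, against 3 of 49 of the other genes.

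The promoter words differed by histone type. RefSeq promoters, 250 bases before to 50 after the start, were matched for 62 of 67 histone genes and gave 63 windows, compared with all 21262 RefSeq protein-coding windows. Words were searched on both strands. The word CCAAT, bound by NF-Y, was in all 6 H1, 18 H2A, 17 H2B and 10 H3 windows but in 3 of 12 H4 windows. Over all histone windows it was in 85.7%, against 38.2% of all windows. TATAAA, the TATA box, was in 55.6%, against 12.6%, and 15 of its 31 matches on the gene's strand began between 45 and 20 bases before the start. The median GC content was 45.3%, against 56.3%, and the ratio of observed to expected CpG was 0.746, against 0.567.

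Other words were uneven over the types, and paired H2A and H2B genes have overlapping windows that can hold the same place. ATTTGCAT, the octamer bound by POU2F1, was in 7 of 18 H2A and 7 of 17 H2B windows and in no window of another histone type (22.2%, against 1.66% of all windows), at 11 distinct places. TTTCGCG was in 8 H2A and 5 H2B windows (20.6%, against 1.19%), which together hold it at 8 distinct places. GGTCC, the core of the H4 element recognised by HINFP, was in 11 of 12 H4 windows, but also in 1 H1, 5 H2A, 6 H2B and 4 H3 windows, and in 42.9% of all histone windows, against 49.03%. GGGCGG, the GC box, was in 9 of 12 H4, 4 of 6 H1, 7 of 18 H2A, 2 of 10 H3 and 2 of 17 H2B windows, with 38.1% over all histone windows, against 46.2%. CACGTG and TTTGGCG were in no histone window, against 7.84% and 1.86%. TTTGCAT, which lies within the octamer, was in 23.8%, against 4.23%.

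In the H4 windows the word GGTCC often had the same place and was protected at some of the genes. Only matches just before the start on the gene's strand were placed. They began between 47 and 5 bases before the start in 11 windows, and at 46 or 47 bases before it in 6 of them. This match lay wholly inside a footprint in both libraries at Hist1h4b, Hist1h4c, Hist1h4d and Hist1h4i, in 1 library at Hist1h4h, Hist1h4k, Hist1h4m and Hist4h4, and in neither at Hist1h4f, Hist1h4j and Hist1h4n. In the sequences above the word stands as AGGTCCGCA in Hist1h4c and GGTCCGCA in Hist1h4d, followed by a TATA-like stretch. With 10 bp allowed to each side of a footprint, 11 and 12 of 14 GGTCC matches in open H4 windows were covered in replicates 1 and 2 (78.6% and 85.7%), against 39.0% and 43.1% of matches in all open windows.

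Protection of other words was mixed. With the same margin of 10 bp, each place in open histone windows was counted once. TTTCGCG was covered at 6 and 5 of 8 places (75.0% and 62.5%), against 59.4% and 61.3% of matches in all open windows. GGGCGG was covered at 64.3% and 60.7% of 28 places, against 67.0% and 71.1%. CCAAT was covered at 37.4% and 39.6% of 91 places, against 48.4% and 50.5%, and TATAAA at 44.4% and 40.7% of 27 places, against 27.5% and 27.0%. The TATAAA shares depend on the margin. Without it, 6 and 2 of 32 TATAAA matches lay inside footprints (18.75% and 6.25%), against 8.47% and 4.94% of matches in all open windows. Of all places of that length in open histone windows, 10.2% and 11.7% did, so TATAAA was below this share in replicate 2. Footprints with the margin covered less of the open histone windows in general. For any word as long as GGGCGG, 30.1% and 32.7% of all places were covered, against 38.7% and 41.6% in all open windows. For the length of CCAAT they were 30.8% and 33.5%, against 39.6% and 42.5%. The lower shares of GGGCGG and CCAAT thus do not show weaker protection of these words. ATTTGCAT was covered at 2 and 3 of 8 places. TGACGTCA, the CRE word bound by CREB and ATF factors, was added after the sequences were seen. It was in 6.35% of histone windows, against 2.23% of all, and all 4 of its distinct places were covered in both libraries, against 89.0% and 90.7% of matches in all open windows. Hist1h4a, whose window lacks GGTCC, holds it at 98 and at 34 bases before the start, both in capitals above.

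More histone promoter peaks held a footprint than other promoter peaks did, while the number per kb was lower in replicate 1 and higher in replicate 2. Histone promoter peaks held 12.8 footprints per kb in replicate 1 and 15.9 in replicate 2, against 14.2 and 15.2 in all promoter peaks. At least 1 footprint lay in 93.5% and 98.2% of histone promoter peaks, against 83.8% and 86.4%. The promoter windows of all histone genes held 348 and 378 footprints, counted per gene, with a median width of 10 bp and 11 bp. Of these, 183 and 194 had their middle within 250 bp before to 50 bp after the TSS.

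The mRNA end of the genes set them apart. The histone stem-loop began within 150 bases after the coding end at 63 of 67 histone genes, against 3 of 21871 other protein-coding genes. Those 3 were H2afx, the gene of the DNA damage histone H2A.X, H2bfm, and Lrrc75b. The counts of forms leave out Hist1h2bc, Hist1h3a, Hist1h3f and Hist2h4, which have a stem-loop but no matched RefSeq promoter. The common form, found at 39 of the other histone genes, and 2 further forms, found at 8 genes each, are shown since they differ in the stem or in the loop.
common form: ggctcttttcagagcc
form with another stem: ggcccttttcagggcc
form with another loop: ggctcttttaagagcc
Hist1h2an, Hist1h3g, Hist1h4a and Hist2h2be had no match in that stretch, and all 4 were open in both libraries.

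Per gene, the strongest promoter peak of the replication-dependent histone genes had a lower median density than in each of 3 related gene lists. The share of open genes was lower than in 2 of these and not lower than in the replication-independent histone genes (73.3%). Of 15 replication-independent histone genes, 11 were open in both libraries, led by H2afv and H2afx, the genes of variant H2A histones, with 14.2 and 11.2 for H2afv and 14.8 and 10.2 for H2afx. The germline or testis genes H1foo, H1fnt, H2afb1 and H2bfm had no promoter peak. H2afx and H2bfm carry the stem-loop described above, so this list is not free of that trait of the replication-dependent genes. Of the genes that regulate histone transcription or mRNA ends, 23 of 24 listed symbols were matched, and 22 were open in both libraries, with E2f3 and Nfya at the top; Gon4l had one in replicate 1 only (0.845). Npat had 16.5 and 9.11, Hinfp 14.3 and 8.03, and Slbp 8.48 and 4.22. All 18 listed S phase and proliferation genes had a peak in both, led by Gins2 and Mcm4. The strongest promoter peak had a median of 3.26 and 2.38 in the replication-dependent histone genes, against 5.68 and 3.87 in the replication-independent ones, 8.06 and 5.52 in the regulators and 6.77 and 4.30 in the S phase genes. The types differed: H4 genes had 6.65 and 4.02, above the replication-independent genes, while every other type was below all 3 lists. These lists were not compared per peak, and the number of peaks per gene was not matched between them. Promoter peaks at cell cycle genes do not show that the cells divide.

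As a check of the labelled tissue, 5 of 8 markers of cortical neurons (62.5%) were open in both libraries, against 55.1% of all protein-coding genes, and 8 of 8 had a hotspot in both; Slc17a7 had no promoter peak, and Tbr1 and Neurod6 had one in replicate 2 only. Of 8 genes used outside the cortex, 0 had a promoter peak in either library, and 1 had a hotspot in both. The promoter peaks of the neuronal markers are thus a weak check of the tissue.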

How the data were processed

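DNase-seq interval lists of 2 libraries were analysed on mm10. The lists were made per library. Aligner and callers, with versions and settings, were not given in the sources used here. Peak lists deposited by the authors carry a density signal without a p or q. Hotspots carry the highest −log10 FDR of each hotspot, per the file headers. The deposited footprint lists hold the constant 0.01 as p-value, not a value per footprint, and the deposited per-base p-value tracks give an FDR for bases under 0.05.

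The main peak list was the one in which every peak held a base with FDR under 0.001, inferred from those tracks; the looser one reaches 0.05 and the stricter subset needs 0.0001 or lower. Relative depth came from the smallest step of which each library's densities are multiples (to within 0.05 of a step); total depth does not follow from this. Members and lists were chosen with earlier results of these data known. Promoters are windows of 1 kb to each side of any GENCODE vM21 TSS, with an overlap of at least 1 bp. Genes named with full values were the 2 of each histone type with the highest mean percentile of density, every Hist2, Hist3 and Hist4 gene and every gene without a promoter peak; other genes are named to fill out ranges and counts and were chosen after their values were seen. Files and reference were compared by chromosome length, and 0 of 651577 intervals ended past a chromosome of GRCm38.p6. Sequences are RefSeq's. Mapping an F1 cross to the C57BL/6 genome can favour C57BL/6 alleles. Overlaps were tested on simulated data. Python 3.11.15, numpy 2.4.6, pandas 2.3.3, scipy 1.17.1 and matplotlib 3.10.9 were used. Alternatives were other peak lists, windows, TSS sets, equal list size, overlap of 50%, each replicate alone and promoters of mostly unrepeated sequence.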

Additional observations from a re-analysis of the deposited data

How the results depend on the processing

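The count of 52 histone genes open in both libraries, by a promoter peak in each, was 51 with the stricter FDR, 55 with the looser list, 52 and 54 with the lists of the authors' other run, 51 and 57 with windows of 500 and 2500 bp, and 52 with coding transcripts only or equal list size. Replicate 2 alone gave 52 and replicate 1 alone 54. Of the alternatives added after seeing the data, a window around the first coding base gave 53, one around the RefSeq start 48 of 62 genes, a window of 100 bp gave 48, and genes with at least 50% of words found once gave 50 of 57. Of the recomputed values, 195 stayed within 1.5 times the count, or within the spread between the libraries for the median percentile of 74.9, and 14 did not. All but 1 of the 14 came from keeping only the 11 genes with at least 90% of words found once, which leaves 9 genes open in both libraries, 14 distinct sites, 10 genes with a hotspot, 9 with a footprint, 0 head-to-head pairs and 13 covered words. By type it leaves 0 H2A, 1 H2B, 0 H3 and 4 H4 genes with a peak, and by cluster 7 Hist1, 1 Hist2 and 0 Hist3 genes. Fewer genes are the reason for the lower counts. The H2B gene left is Hist1h2be, whose promoter window lies at an annotated TSS far from its stem-loop. Without a margin around footprints, 24 word matches were covered in both libraries, against 82 with 10 bp. The pair rule uses no promoter window, so windows gave no other value for it. No paired analysis was possible because there is 1 group. Total depth is not given, so a missing peak is not evidence of closed DNA.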
